A study of Mus musculus with 6 samples.

Results

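Revival-like regenerative cells were described in mouse small intestinal organoids profiled by droplet single-cell RNA sequencing. The cells were chosen by transcripts of 6 genes linked to intestinal repair, namely Sprr1a, Ly6a, Anxa1, Msln, Ly6d and Anxa10. A cell belonged to the group, called gated cells here, when at least 3 of these 6 gate genes had 1 or more unique molecular identifiers (UMIs, each standing for a captured RNA molecule). Cells were first kept when they had at least 1000 detected genes and less than 20% of their UMIs in mitochondrial transcripts. The gate held 1770 of 87954 kept cells over 6 libraries. The levels of the gate genes in gated cells follow from this choice and are given as a description with no test. Clu, a secreted chaperone by which revival stem cells are commonly recognised, was not used in the gate.

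The study asked how intracellular pH bears on intestinal stem cell fate, and all 6 libraries were made at day 3. Wild-type (WT) organoids received the vehicle DMSO (-EIPA, 2 libraries) or 5 µM EIPA, a chemical inhibitor of proton extrusion from the cell (+EIPA, 2 libraries). The remaining groups had 1 library each and came from organoids carrying inducible Cas9-EGFP with a guide RNA, without doxycycline (-Dox) or with 2 µg/mL doxycycline (+Dox). The organoid stocks came from adult mice of 10 weeks and from the duodenum. The inducible construct was delivered by lentivirus and the lines were grown from single clones, so that both -Dox and +Dox carry it. The +Dox library was sorted for live GFP+ cells and the other libraries for live cells, hence the effects of the sort, the doxycycline and the edit cannot be told apart. Nothing in the labels says that the 2 libraries of a WT group came from separate animals. The p-values measure spread between these libraries only, and edgeR pools that spread over genes.

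Revival stem cells are rare cells of the intestinal epithelium that become abundant after the crypt loses its Lgr5-expressing stem cells, for example after irradiation. They are known for high Clu, for genes of the fetal epithelium such as Ly6a (Sca-1) and Anxa1, and for YAP-dependent transcription. Organoids grown from crypts or single cells pass through a related regenerative state before new crypts form.

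Gated cells made up a larger share of both +EIPA libraries than of either -EIPA library. The -EIPA libraries held 47 gated cells of 12606 kept cells (0.373%, exact 95% binomial interval 0.274 to 0.495) and 182 of 18211 (1.00%, 0.860 to 1.15). The +EIPA libraries held 286 of 13194 (2.17%, 1.93 to 2.43) and 963 of 14262 (6.75%, 6.35 to 7.18). The WT groups did not overlap, and the share was 6.27-fold higher with EIPA as a ratio of geometric means, with 5.81-fold and 6.76-fold in replicates 1 and 2. Leaving out 1 library gave 11.1-fold without +EIPA replicate 1, 3.55-fold without +EIPA replicate 2, 3.83-fold without -EIPA replicate 1 and 10.3-fold without -EIPA replicate 2. The exact two-sided permutation test gave p = 0.333, the smallest value that 2 libraries against 2 allow. In the edited line, 26 of 17598 cells were gated in -Dox (0.148%, 0.0965 to 0.216) and 266 of 12083 in +Dox (2.20%, 1.95 to 2.48), a ratio of 14.9 (95% interval 9.97 to 22.3). With 1 library on each side this ratio was not tested, and all intervals given here cover counting error only.

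**Figure D1:**
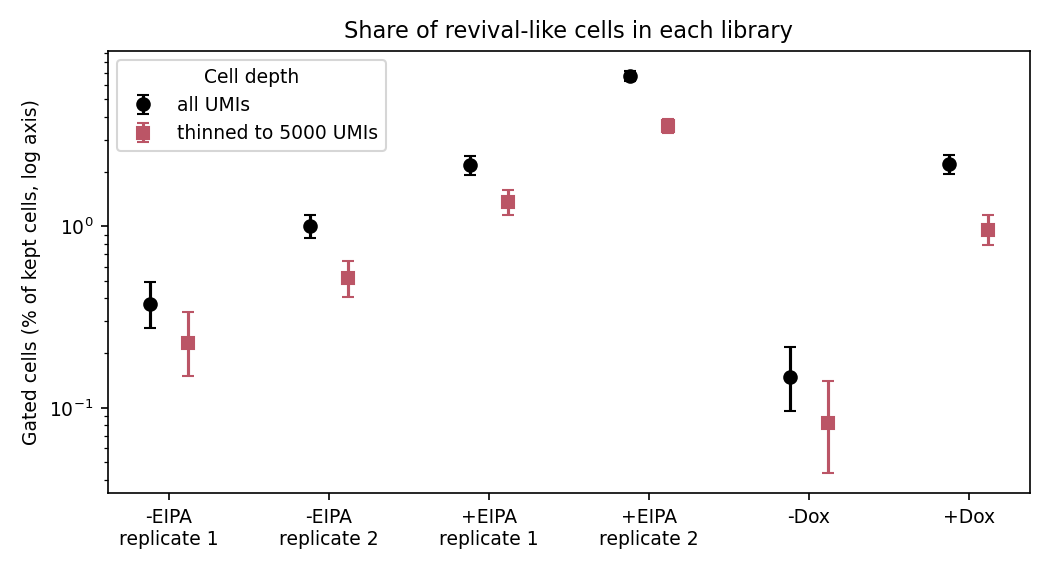
Percent of kept cells that were gated (log axis) in each of the 6 libraries, at full depth and after each cell was thinned to 5000 UMIs; bars are exact 95% binomial intervals. Both +EIPA libraries (2.17% and 6.75%) sit above both -EIPA libraries (0.373% and 1.00%), and +Dox (2.20%) above -Dox (0.148%), at both depths.

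Depth moved with the gate. Gated cells had more UMIs than other kept cells in 5 of 6 libraries, for example a median of 20676 against 14197 in +EIPA replicate 2 and 27097 against 16863 in +Dox, and fewer in -Dox (9778.5 against 11952.5). When each cell was thinned to 5000 UMIs and shallower cells were left out (690 to 2497 cells a library), the gated shares were 0.229% and 0.515% in -EIPA, 1.35% and 3.57% in +EIPA, 0.0820% in -Dox and 0.957% in +Dox. Cells called as doublets made up 8.51% to 20.5% of gated cells in 5 libraries and 0 of 26 in -Dox, against 9.17% to 14.1% of other kept cells. Within a library, their share was higher in gated than in other cells in both +EIPA libraries, -EIPA replicate 2 and +Dox. It was lower in gated cells in -EIPA replicate 1 and -Dox. Called doublets were kept in the gate, and removing them is given among the alternatives at the end. Any pair of libraries shared 33 to 78 of their cell barcodes (0.252% to 0.563% of a library).

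Cells of types not known to use the gate genes were counted as a reference, and what put gate gene UMIs in them (free RNA, doublets or expression) was not tested. Enteroendocrine cells, the hormone-secreting cells, and tuft cells, the chemosensory cells, were picked by at least 7 of their own markers. Of enteroendocrine cells, 0.662% and 0.744% passed the gate in the -EIPA libraries, 0.899% and 2.92% in +EIPA, 0% of 24 cells in -Dox and 2.60% in +Dox. Of tuft cells, the shares were 0% and 0.760%, then 0.676% and 3.42%, then 0% in both -Dox and +Dox. Median depth was 4843 to 13618 UMIs in these reference cells. After thinning to 5000 UMIs, 0.422% and 0.319% of enteroendocrine cells were gated in -EIPA, 0.476% and 1.34% in +EIPA and 0 of 72 in +Dox, and 0% and 0%, 1.11% and 0.629%, and 0% of tuft cells. As a share alone, -EIPA replicate 1 (0.373%) lay within the interval of its enteroendocrine cells (0.0803% to 2.37%, 2 of 302 cells) and replicate 2 (1.00%) within theirs (0.274% to 1.61%). In +EIPA replicate 1 the share (interval 1.93% to 2.43%) overlapped the interval of enteroendocrine cells (0.293% to 2.09%) and lay within that of tuft cells (0.0171% to 3.71%). In +EIPA replicate 2 it was clear of the interval of enteroendocrine cells (1.65% to 4.78%) and overlapped that of tuft cells (1.49% to 6.63%). The +Dox share lay within the interval of its 77 enteroendocrine cells (0.316% to 9.07%). With at least 5 gate genes, a setting added after the data were seen, the share of kept cells was 0.143%, 0.329%, 0.637%, 2.46%, 0.0114% and 0.439% in the order -EIPA 1 and 2, +EIPA 1 and 2, -Dox and +Dox, and the +EIPA to -EIPA ratio was 5.77. At that setting 0.662%, 0.248%, 0.180%, 0.975%, 0% and 0% of enteroendocrine cells and 0%, 0%, 0.676%, 0.855%, 0% and 0% of tuft cells passed.

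The 6 gate genes were carried to different extents by the gated cells. Below, 6 values in a row follow the library order just given, and levels are CPM, the UMIs of a gene per 1000000 UMIs summed over the gated cells of a library. Anxa10, an annexin of gastric and metaplastic epithelium, had a UMI in 97.9%, 87.4%, 92.0%, 88.0%, 96.2% and 95.5% of gated cells. Anxa1, an annexin of the fetal-like program, was present in 72.3%, 92.9%, 70.6%, 85.1%, 76.9% and 82.0%. Anxa10 was thus the gate gene carried by most gated cells in every library but -EIPA replicate 2, where Anxa1 was. The level of Anxa10 lay at 203 to 374 CPM. Ly6a, the surface antigen Sca-1, was found in 46.2% to 78.6% of gated cells and Sprr1a, a cornified envelope precursor, in 43.4% to 72.3%. Msln, encoding the surface protein mesothelin, and Ly6d, another Ly6 family antigen, were found in 23.1% to 55.0% and in 38.3% to 50.7%. Sprr1a reached 714, 320, 685, 517, 240 and 373 CPM, and Msln, at 396, 172, 192, 179, 63.5 and 106 CPM, had the widest span of the 6 as a ratio of highest to lowest. Among kept cells 71628 had no gate gene, 11957 had 1, and 2599 had 2, just outside the gate, while 814 had 3, just inside it, 388 had 4, 303 had 5 and 265 had all 6.

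The gate genes lie on separate chromosomes apart from the Ly6 pair. In mm10, Ly6a (chr15:74994877-74998031) and Ly6d (chr15:74762056-74763620) are on the minus strand of the same chromosome, as are Sprr1a (chr3:92483952-92485895), Anxa1 (chr19:20373428-20390944), Msln (chr17:25748613-25754378) and Anxa10 (chr8:62057042-62123150) on theirs, whereas Clu (chr14:65968483-65981547) is on the plus strand. Promoter sequence from RefSeq (GRCm38.p6, from 250 bases before to 50 bases after the start) was at hand for Sprr1a, Anxa1 and Anxa10. It was searched on both strands for TGANTCA, with N for any base, and for GGAATG, the letters bound by TEAD, the DNA-binding partner of YAP. TGANTCA, called the AP-1 letters here, takes in the sequences bound by AP-1 dimers of Fos and Jun proteins and is wider than these. The AP-1 letters were in 2 of these 3 promoters, against 8.97% of 27025 genes with 1 or more promoter entries (7.81% of 32851 promoters), and the TEAD letters in 1 of 3, against 16.6% of genes (14.7% of promoters). The runs below show the AP-1 matches in the gate genes and 1 each in S100a11, Il1rn and Anxa2, described further on (another in S100a11 and 2 in F3 are not shown), since AP-1 genes are among those compared between treatments; capitals mark the AP-1 letters, and a match is a description of sequence and not a site.
Sprr1a, chr3:92486001-92486047, minus strand, 146 bases before the start: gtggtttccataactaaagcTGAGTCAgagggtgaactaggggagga
Sprr1a, chr3:92485971-92486017, minus strand, 116 bases before the start: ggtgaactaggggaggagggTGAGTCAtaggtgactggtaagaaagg
Anxa10, chr8:62123347-62123393, minus strand, 180 bases before the start: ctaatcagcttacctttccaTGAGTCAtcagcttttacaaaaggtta
Anxa10, chr8:62123183-62123229, minus strand, 16 bases before the start: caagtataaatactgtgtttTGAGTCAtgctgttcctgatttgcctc
S100a11, chr3:93520340-93520386, plus strand, 136 bases before the start: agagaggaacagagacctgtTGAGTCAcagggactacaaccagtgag
Il1rn, chr2:24336699-24336745, plus strand, 141 bases before the start: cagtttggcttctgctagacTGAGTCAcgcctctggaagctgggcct
Anxa2, chr9:69453568-69453614, plus strand, 95 bases before the start: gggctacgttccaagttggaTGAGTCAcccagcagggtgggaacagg
Of the genes named below as higher in gated cells, 4 of 14 with a promoter entry held the AP-1 letters, and of those named as lower, 1 of 7.

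Clu followed the gate in every library. Its level in gated cells was 646, 895, 269, 788, 60.8 and 270 CPM, and in other kept cells 2.48, 29.8, 7.55, 42.5, 0.392 and 7.91 CPM. The ratio of gated to other cells, with no added count, was 8.03, 4.91, 5.16, 4.21, 7.28 and 5.09 on the log2 scale. The -Dox value rests on 22 UMIs in 26 cells. Replicate 2 of each WT group had more Clu than replicate 1 in gated and in other cells alike. At 5000 UMIs a cell, 38.6%, 64.7%, 31.2%, 55.2%, 27.3% and 25.7% of gated cells had a Clu UMI, against 1.08%, 10.2%, 3.07%, 14.03%, 0.152% and 2.16% of other cells. At that depth, 0% to 12.8% of enteroendocrine and tuft reference cells had one. The label revival-like thus held for Clu as a level over the gated cells, though not each gated cell had a Clu UMI.

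Clu also climbed with the number of gate genes. In +EIPA replicate 2 it stood at 29.7 CPM in cells with no gate gene, 46.1 with 1, 95.2 with 2, 185 with 3, 558 with 4, 1268 with 5 and 1828 with 6. In +Dox the series was 5.5, 11.9, 29.1, 94.5, 187, 567 and 1029 CPM, and in -EIPA replicate 2 it was 22.1, 47.1, 99.8, 338.5, 844, 1436 and 2117. At full depth every step was upward in these 3 libraries and in +EIPA replicate 1 (5.3 to 625 CPM). In -EIPA replicate 1 it dipped from 11.1 with 2 gate genes to 5.1 with 3 and from 1885 with 5 to 937 with 6, and in -Dox it dipped from 50.6 with 3 to 42.9 with 4, with 1 cell each in the classes of 5 and 6. At 5000 UMIs a cell the order held throughout in +EIPA replicate 2 and +Dox, and in -Dox over the classes of 0 to 4 that it had. Clu fell back from 2222 with 5 to 400 with 6 (1 cell) in -EIPA replicate 1, from 4035 with 5 to 2815 with 6 in -EIPA replicate 2, and from 82.8 with 2 to 78.6 with 3 and from 897 with 5 to 509 with 6 in +EIPA replicate 1. Cells just outside the gate thus had 11.1 to 99.8 CPM of Clu, and cells just inside it 5.1 to 338.5 CPM.

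**Figure D2:**
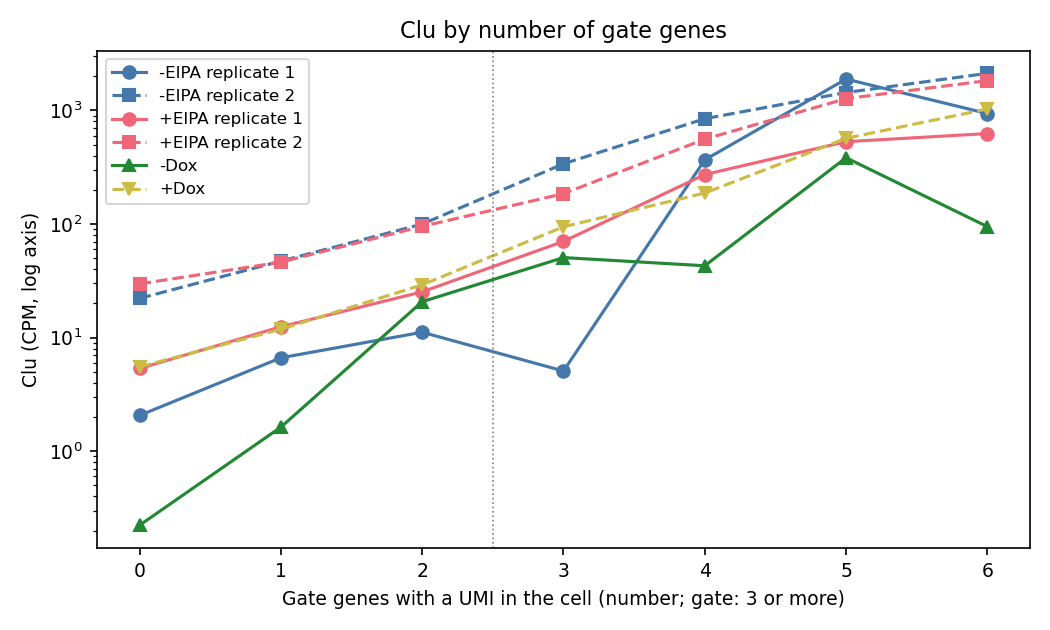
Clu in CPM (log axis) against the number of the 6 gate genes with a UMI, 1 line for each library. Clu, which was not used to choose the cells, goes from 29.7 CPM with no gate gene to 1828 CPM with 6 in +EIPA replicate 2 and from 5.5 to 1029 CPM in +Dox.

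Beyond the gate, S100a6, Lgals3 and Areg were among the genes most raised in gated cells. These values compare cells by a rule that used transcripts of the same cells, so they are a description and were not tested. Of 6825 genes at 20 CPM or more, 62 (0.908%), gate genes included, were higher in gated than in other cells by 1 or more on the log2 scale (with 20 CPM added to both) in all 6 libraries, and 56 of these were outside the gate. S100a6, a calcium-binding protein, was at 8518, 8056, 6415, 9955, 4125 and 4587 CPM in gated cells and 226, 786, 423, 1056, 126 and 206 CPM in other cells. Lgals3, encoding galectin-3, was at 2297, 1097, 1514, 1393, 752 and 735 CPM against 28.2 to 83.9 CPM. Areg, an EGF receptor ligand known from tissue repair, was at 1110, 688, 774, 680, 1326 and 1259 CPM against 42.2 to 171 CPM. None of these 3 genes overlapped between gated and other cells, but they were picked for large ratios in every library.

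The lowest to highest log2 ratio over the 6 libraries was 3.77 to 4.98 for Lgals3, 3.21 to 5.12 for S100a6 and 2.45 to 4.06 for Areg. Among the 20 genes with the largest ratios were 3 annexins outside the gate, with 2.95 to 3.69 for Anxa3, 2.03 to 2.81 for Anxa2 and 1.84 to 2.92 for Anxa5. F3, the tissue factor that starts coagulation, lay at 2.70 to 3.51, and Il1rn, the antagonist of the interleukin-1 receptor, at 2.04 to 3.38. Capg, a capping protein of actin filaments, lay at 2.55 to 3.44, S100a11 at 2.47 to 3.55 and Krt23, a keratin, at 1.87 to 2.95. Nupr1, a stress-induced chromatin protein, was at 291 to 334 CPM in gated cells of the 4 WT libraries and at 564 and 1143 CPM in those of -Dox and +Dox. Other kept cells were also higher in the edited line, at 29.4 to 48.0 CPM in WT and 141 and 215 CPM in -Dox and +Dox. Its log2 ratio was 2.35 to 2.84 in WT and 1.85 and 2.31 in -Dox and +Dox. Of 35 genes on the list of regenerative and fetal markers, 25 were higher in gated cells in all 6 libraries, against 25.5% of all genes, 20 of them by 1 or more, and 2 had no UMI in gated cells. This list was drawn up with earlier results of these data known and is not independent of them.

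Stem cell and replication genes were lower in gated cells. Olfm4, a secreted glycoprotein of crypt base stem cells, was at 445, 604, 365, 329, 334 and 531 CPM in gated cells and 1138, 1728, 1171, 1181, 1757 and 1881 CPM in other cells. Lgr5, the receptor for R-spondins that marks crypt base stem cells, was at 16.6 to 25.2 CPM against 50.6 to 59.7 CPM. Neither gene overlapped between the cell groups, with log2 ratios of -2.33 to -1.32 and -1.12 to -0.77, but both were picked for low ratios in every library. Of 15 stem cell genes, 11 were lower in all 6 libraries, against 22.3% of all genes, and Axin2, a feedback target of Wnt signalling, had -1.13 to -0.73. Of 15 S phase genes 13 were lower in all 6 libraries, but of 15 G2/M genes only 2 were. Only 2 of all 6825 genes (0.0293%) were lower by 1 or more in every library, Olfm4 and Cps1, a mitochondrial enzyme of the urea cycle (-1.41 to -1.06). Of 17 YAP target genes, of which 4 reached 20 CPM, 4 were higher and 4 lower in all 6 libraries and 0 by 1 or more. Their summed level was 149 to 239 CPM in gated cells and 107 to 138 CPM in others, with log2 ratios of 1.07, 0.25, 0.60, 0.64, 0.46 and 0.54.

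**Figure D3:**
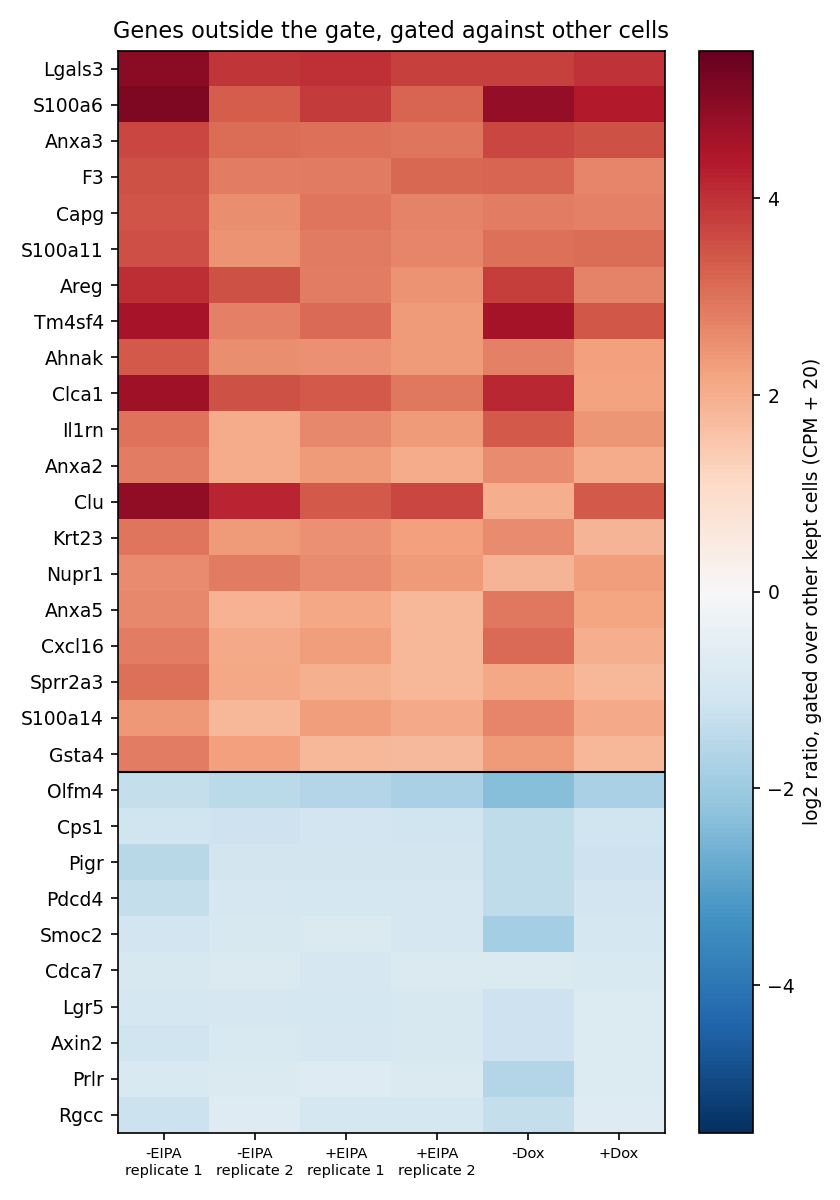
Log2 ratio of gated to other kept cells (20 CPM added to both) for the named genes outside the gate, 1 column for each of the 6 libraries, red for higher and blue for lower in gated cells. S100a6 (3.21 to 5.12) and Lgals3 (3.77 to 4.98) are red in every library, while Olfm4 (-2.33 to -1.32) and Lgr5 (-1.12 to -0.77) are blue.

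Markers of other cell types were not absent from gated cells. The summed level of 16 enterocyte genes was 3886 to 14040 CPM in gated cells and 4668 to 21346 CPM in others. It was lower in gated cells in all 6 libraries, with log2 ratios from -0.88 in -Dox to -0.03 in -EIPA replicate 1. With other cells weighted to match the depth of gated cells, the sign turned in replicate 1 of -EIPA (0.21) and of +EIPA (0.09). In the remaining libraries it stayed lower, from -0.73 in -Dox to -0.26 in -EIPA replicate 2. Of these genes 3 were higher and 3 lower in all 6 libraries, near the shares over all genes (25.5% and 22.3%). The 11 goblet cell genes summed to 7209 to 17821 CPM against 4195 to 10072 CPM, higher in gated cells in 5 libraries and not in +EIPA replicate 2 (9856 against 10072 CPM). With the same weighting the log2 ratio in +EIPA replicate 2 was 0.22. Of the 11 goblet cell genes 4 were higher and 1 lower in all 6 libraries, with a median log2 ratio of 0.03. Clca1, a secreted goblet cell protease, was at 233 to 728 CPM in gated cells with a log2 ratio of 2.21 to 4.66. The 11 Paneth cell genes summed to 941, 5415, 7369, 11040, 1912 and 38300 CPM in gated cells, lower than in other cells except in +Dox (22218 CPM). Enteroendocrine genes summed to 16.6 to 1249 CPM and tuft cell genes to 5.53 to 31.5 CPM. The highest enteroendocrine sum, in -EIPA replicate 1, held 549 CPM of Cck, of which 98.6% came from 1 cell. The part of mixed droplets in these values was not tested.

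Markers of cells from outside the epithelium were low. In gated cells mesenchymal markers summed to 0 to 15.6 CPM (0.482 to 13.4 CPM in others), immune markers to 2.05 to 7.79 CPM (1.02 to 1.48 CPM in others) and endothelial and glial markers to 0 to 3.50 CPM (1.47 to 2.27 CPM in others). The immune sum was higher in gated cells in all 6 libraries. Msln also marks the mesothelium, and 6 other mesothelial markers summed to 13.1 to 52.5 CPM in gated cells and 5.498 to 20.8 CPM in others, higher in gated cells in all 6 libraries. Upk1b, a uroplakin, held most of this at 10.8 to 49.7 CPM, against 1.77 to 13.1 CPM in others. Of the remaining 5, Wt1, Rspo1 and Bnc1 had 0 UMIs in gated cells of all 6 libraries, Upk3b was at 1.71 to 2.76 CPM and lower than in other cells, and Lrrn4 reached 6.70 CPM in -EIPA replicate 2. Tff1 (chr17:31161395-31165277), a trefoil peptide of the gastric surface, was the exception among gastric markers, at 340, 296, 29.9, 164, 8.29 and 32.5 CPM in gated cells against 0.0746, 0.268, 0.125, 1.86, 0.0172 and 0.420 CPM in others. It came from few cells, 8, 27, 12 and 88 of the gated cells in the 4 WT libraries, and Muc5ac, Muc6, Atp4b and Sox2 had 0 UMIs.

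Gated cells with and without a Clu UMI were not alike. Cells were split at 5000 UMIs, and this split was by one measured gene, so it is a description. Cells with Clu carried on average 5.0, 4.3, 4.6, 4.5, 3.5 and 4.5 gate genes, and cells without it 3.4, 3.5, 3.7, 3.6, 3.4 and 3.5. Tff1 was at 896, 490, 78.1, 284, 37.4 and 140 CPM in cells with Clu and at 0 to 12.1 CPM in cells without. S100a6 was higher in cells with Clu in all 6 libraries, for example 13035 against 6189 CPM in +EIPA replicate 2. The summed enterocyte genes ran the other way in 5 libraries, with 6324 CPM in cells with Clu and 13167 CPM in cells without it in +EIPA replicate 2, and not in -Dox (7809 against 4886 CPM). Summed Paneth genes were lower in cells with Clu in every library but -EIPA replicate 2 (6693 against 3449 CPM). The gate gene Sprr1a was lower in cells with Clu in +EIPA replicate 1 (308 against 863 CPM) and -Dox (24.9 against 283 CPM), and higher in the other libraries. No Clu UMI at 5000 UMIs does not mean no Clu, since at full depth 84.1% and 77.3% of gated cells had one in -EIPA and +EIPA replicate 2, against 64.7% and 55.2% thinned.

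EIPA was then compared with DMSO within the gated cells, to ask whether the cells differed as well as their share. The UMIs of gated cells were summed for each library and compared by edgeR's quasi-likelihood test, with p-values adjusted by the Benjamini-Hochberg method over all 10653 genes tested. No gene, 0 of 10653 (0%), passed an adjusted p of 0.05, while 268 (2.52%) had a p under 0.05 before adjustment and DESeq2 called 19. Leaving out 1 library gave 130 and 18 calls without -EIPA replicates 1 and 2 and 45 and 35 without +EIPA replicates 1 and 2. The labels do not say that the replicate numbers pair the libraries, and the pairing was taken from the study's source data. With the replicate number as a block edgeR called 140 genes (1.31%), 123 higher (1.15%) and 17 lower (0.160%). The calls below are those of the blocked test, and the unblocked test gave none of them. With so few libraries the blocked test leans on spread pooled over genes, so its p-values do not rest on a gene's own spread alone. Of 138 called genes also tested in other kept cells, 130 changed in the same direction there.

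Clu and the regenerative genes were looked up first. Of 30 regenerative and fetal markers tested, 0 were called with or without the block, where 1.31% and 0% of all genes were called, so that this count says nothing particular about them, and the median log2 change was 0.12 against 0.01 over all genes. For Clu edgeR gave a log2 difference of -0.44 with an SE of 0.48 (adjusted p = 1.00), the block gave -0.59 with an SE of 0.22 (adjusted p = 0.428 by edgeR), and the sign turned (0.15) when +EIPA replicate 1 was left out.

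Enterocyte, Paneth and goblet genes were higher with EIPA in the gated cells under the block. Over all genes tested, 1.15% were called higher and 0.160% lower, as a base for the counts that follow. Of 16 enterocyte genes 10 were called higher and 0 lower. Apoa1, an apolipoprotein of lipid export, was at 1391 and 389 CPM in -EIPA and 2603 and 1702 CPM in +EIPA (log2 change 1.64, SE 0.24, adjusted p = 3.63e-06, edgeR with the block). Fabp1, a fatty acid carrier, was at 1225 and 1325 CPM and then 4219 and 2735 CPM. Neither gene overlapped between the groups, as was so for 106 of the 140 called genes. Of 11 Paneth genes 10 were higher, among them Defa24, an antimicrobial defensin, at 558 and 2893 CPM against 4703 and 6206 CPM. Of 11 goblet genes 6 were higher, with Muc2, the gel-forming mucin, at 53.2 and 91.3 CPM against 200.3 and 179.9 CPM (log2 change 1.47, SE 0.23, adjusted p = 6.76e-06). The same lists had unblocked medians of 0.82, 1.46 and 1.04 in gated cells and 1.12, 1.04 and 0.80 in other kept cells. Of 10 enteroendocrine genes 0 were called higher and 1 lower (Cck), with an unblocked median of -0.57, and of 3 tuft genes 0 were called, with a median of -1.17. With 1.15% of all genes called higher, 0 of so few genes says nothing particular about these 2 lists. For Cck, 98.6% of the UMIs of -EIPA replicate 1 came from 1 cell. With called doublets removed, the log2 difference of the Paneth gene Defa22 went from 3.94 to 1.28 without the block. A single gated cell held 61.5% and 31.4% of the Defa22 UMIs in +EIPA replicates 1 and 2.

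Mt4, a metallothionein of stratified epithelia, had the smallest adjusted p. It was at 9.08 and 18.4 CPM in -EIPA and 147 and 188 CPM in +EIPA (log2 change 3.62, SE 0.26, adjusted p = 1.15e-16, edgeR with the block). An Mt4 UMI was found in 6 of 47 and 24 of 182 gated cells in -EIPA, and in 85 of 286 and 318 of 963 in +EIPA. Leap2, a liver- and gut-derived peptide that antagonises the ghrelin receptor, rose from 20.8 and 11.9 CPM to 79.0 and 90.5 CPM under the block. Cnfn, a cornified envelope protein, was at 0 and 0.992 CPM and then at 15.5 and 13.6 CPM. In +EIPA its UMIs came from 9 of 286 and 32 of 963 gated cells, and 1 cell held 30.1% and 31.6% of them. In other kept cells the log2 changes, without the block, were 2.77 for Mt4, 1.86 for Leap2 and 6.94 for Cnfn, in the same direction. Defa29 and Prr9 had no UMI in gated cells of either -EIPA library, so that no fold is given. In the +EIPA libraries Defa29 was found in 18 and 40 gated cells and Prr9 in 9 and 22. A single cell held 48.9% and 53.8% of the Defa29 UMIs and 51.6% and 40% of the Prr9 UMIs. Reg3b, an antimicrobial lectin, was at 16.9 and 35.2 CPM and then at 83.6 and 94.7 CPM (1.15 in other kept cells). Of the 15 targets of ATF4, the amino acid response factor, 2 were called higher, Psat1 and Shmt2, enzymes of serine and glycine synthesis, with log2 changes of 0.77 each. Over all genes tested, 1.15% were called higher.

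The genes called lower under the block included AP-1 subunits. Of 14 AP-1 and immediate early genes 4 were lower and 0 higher, where 0.160% of all genes were lower and 1.15% higher. Atf3, a stress-induced partner of AP-1, was at 97.3 and 77.9 CPM in -EIPA and 37.5 and 34.9 CPM in +EIPA (log2 change -1.14, SE 0.19, adjusted p = 3.84e-05, edgeR with the block). Jun was at 219 and 283 CPM and then 124 and 103 CPM (-1.04, SE 0.21, adjusted p = 0.00103). Fos was at 208 and 284 CPM and then 125 and 114 CPM (-0.93, SE 0.21, adjusted p = 0.00529), and Fosb fell by 1.70 on the log2 scale. The groups did not overlap for the 3 genes given by library, as for 106 of the 140 called genes. Called genes without overlap were preferred for naming, so this adds no support. The median over the 14 genes without the block was -0.23 in gated and -0.42 in other kept cells. In other kept cells the log2 changes without the block were -1.65 for Atf3, -0.95 for Jun, -1.33 for Fos and -2.18 for Fosb, so that lower values were seen there too. Several other lower genes rested on single cells, since 1 cell held 99.3% of the Ddit4l UMIs of -EIPA replicate 2, and 98.6% of the Cck UMIs and 97.1% of the Ghrl UMIs of -EIPA replicate 1.

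**Figure D4:**
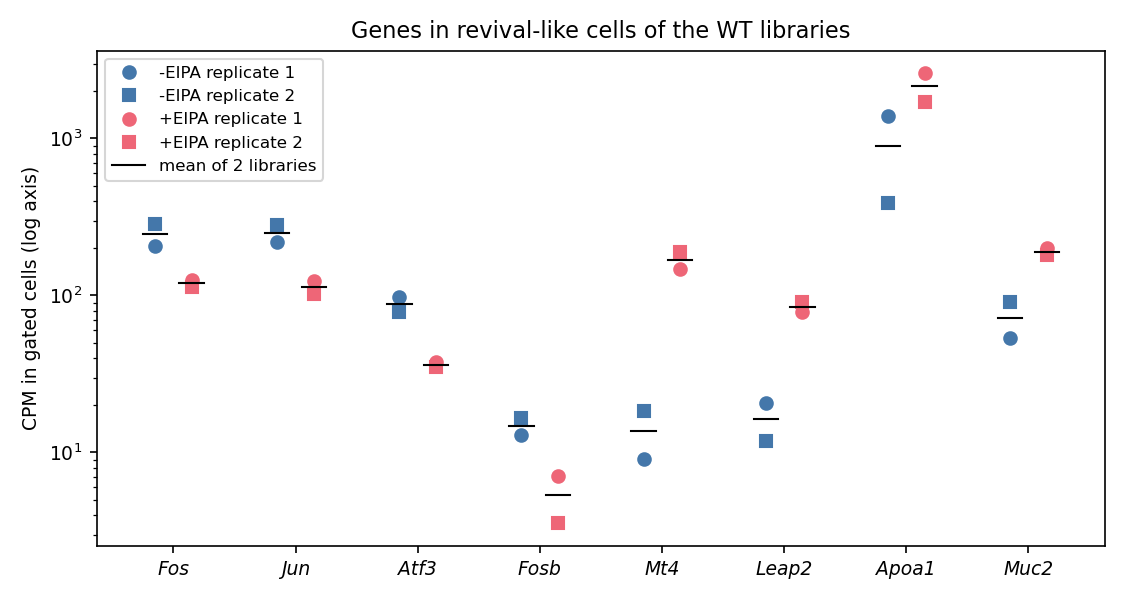
Levels in gated cells (CPM, log axis) of 8 genes called with the replicate block in the 4 WT libraries, 1 point for each library and a line at the mean of the 2 libraries of a group. Mt4 goes from 9.08 and 18.4 CPM in -EIPA to 147 and 188 CPM in +EIPA and Atf3 from 97.3 and 77.9 to 37.5 and 34.9 CPM. Both were named from called genes whose groups did not overlap.

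Whether EIPA acted differently in gated and in other kept cells was tested as an interaction, with the library as a block. Of 15191 genes, 77 (0.507%) were called by edgeR, 12 with a higher (0.0790%) and 65 with a lower (0.428%) EIPA effect in gated cells. The lower calls held 5 gate genes, on which the choice of cells bears directly, and they are not read further. The share of other kept cells with 1 or 2 gate genes also went from 7.22% and 17.2% in -EIPA to 19.96% and 36.3% in +EIPA, and against other cells without any gate gene UMI, a setting added after the data were seen, 23 genes were called, all of them among the 77. Without -EIPA replicate 2 the number was 318, and without +EIPA replicates 1 and 2 it was 38 and 33. Of the 60 lower genes outside the gate, 39 were above the level of other cells in all 4 WT libraries, and 43 had a log2 change with EIPA above 0.5 in other cells. The share of all genes tested with either pattern was not counted. A rise in other cells itself lowers the interaction, so these counts are not read further.

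Il18 and Edn1 were called under all 11 alternatives run. Il18, an epithelial cytokine, was at 79.2 and 68.0 CPM in -EIPA and 78.4 and 61.5 CPM in +EIPA gated cells, while other cells went from 17.1 and 10.1 CPM to 44.3 and 34.0 CPM (interaction -1.62 on the log2 scale, SE 0.21, adjusted p = 1.71e-09, edgeR). Edn1, the vasoactive peptide endothelin-1, was at 55.8 and 68.5 CPM and then 70.2 and 53.01 CPM in gated cells, while other cells went from 33.4 and 58.8 CPM to 14.03 and 11.96 CPM (1.90, SE 0.21, adjusted p = 6.87e-13). For both genes the groups overlapped in gated cells and not in other cells. Clu had an interaction of -1.61 (SE 0.29, adjusted p = 3.17e-05, edgeR) and was called in 6 of the 11 alternatives, but not by DESeq2 (adjusted p = 1.00), not with doublets removed (0.216) and not against other cells without a gate gene (0.468), and its interaction was -0.20 without -EIPA replicate 1 and -1.16 without +EIPA replicate 2, both uncalled. Of 31 regenerative and fetal markers tested, 6 had a lower EIPA effect in gated cells (Anxa3, Anxa8, Areg, Cxcl16, Il1rn and Il33) and 0 a higher one. Of 11 Paneth genes, 4 had a higher one, Defa22, Defa24, Defa30 and Itln1. Over all genes tested, 0.428% had a lower and 0.0790% a higher effect. Regenerative and fetal markers go with the gate genes, and the share of other kept cells just below the gate rose with EIPA. The choice of cells thus bears on the count of these markers too, and that count is not read further.

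**Figure D5:**
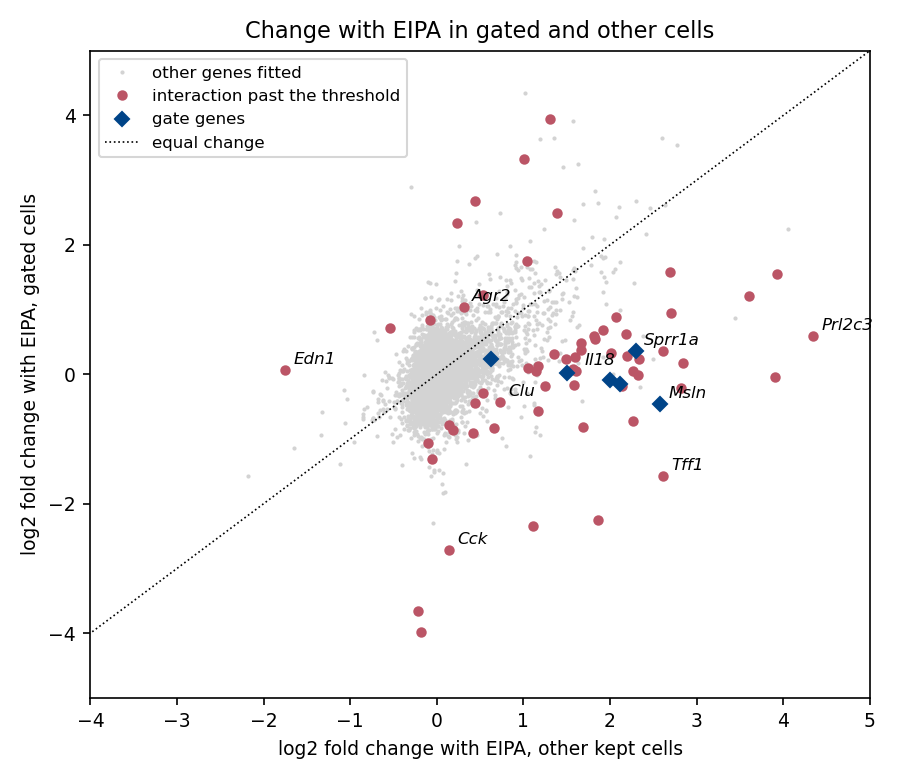
EIPA effect (log2 change) in gated cells against that in other kept cells for 10630 genes, with genes called in the interaction in red, gate genes as blue diamonds and a dotted line of equal change; 4 genes lie outside the axes. Il18 (interaction -1.62) lies below the diagonal and Edn1 (1.90) above it.

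In the edited line the gated cells of -Dox and +Dox were set side by side with no test, since each has 1 library and -Dox only 26 gated cells. Of 6124 genes, 43 (0.702%) were higher and 43 (0.702%) lower in +Dox by 1 or more on the log2 scale with 20 CPM added. Clu was at 60.8 CPM (22 UMIs, exact Poisson interval 38.1 to 92.0) in -Dox and 270.2 CPM (2237 UMIs, 259 to 282) in +Dox, 1.84 higher on that scale.

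Paneth cell genes led the higher values. Lyz1, the Paneth cell lysozyme, was at 251 and 7982 CPM, Itln1, an intestinal lectin, at 232 and 5472 CPM, and Defa24 at 1230 and 20182 CPM. Their log2 differences were 4.88, 4.45 and 4.02, against 1.65, 1.48 and 1.74 in other kept cells. Gated cells of +Dox were also deeper (median 27097 UMIs against 9778.5 in -Dox), and more of them were called doublets. Summed Paneth genes in +Dox were at 44565 CPM in gated cells without a Clu UMI and 17747 CPM in those with one. In -Dox these sums were 2073 and 1445 CPM. The part of doublets and depth in these differences was not tested. Reg3b was at 240.4 CPM in -Dox and 21.5 CPM in +Dox (-2.65), whereas it was higher in +Dox in other cells (1.26). Bnip3, a mitophagy receptor, was at 254 and 66.8 CPM (-1.66), and Atf3 at 133 and 32.7 CPM (-1.53). Among gate genes, Anxa1 (188 and 197 CPM) stood closest, then Anxa10 (251 and 203 CPM) and Ly6d (238 and 171 CPM). Sprr1a (240.4 and 373 CPM), Msln (63.5 and 106 CPM) and Ly6a (390 and 208 CPM) stood further apart. S100a6 (4125 and 4587 CPM) and Areg (1326 and 1259 CPM) differed by 0.15 and -0.07 on the log2 scale.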

How the data were processed

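The authors deposited raw UMI counts per gene and barcode for 6 libraries made with Cell Ranger 6.1.2 against mm10 (GRCm38), per the labels, with no normalization. Kept cells held 161670015 to 239368573 UMIs a library. Cells were selected, summed per library and expressed as CPM in Python 3.11.15, and summed counts were tested with edgeR 4.0.16 (TMM, quasi-likelihood, low-count filter) and, as an alternative, DESeq2 1.42.0 in R 4.3.3, at an adjusted p of 0.05 by the Benjamini-Hochberg method. SE is the log2 change divided by the square root of F. Scripts were tested on simulated data. Doublets were scored by Scrublet (scanpy 1.11.5) and called at a rate of 0.8% per 1000 cells, because its own threshold failed in 3 libraries. Replicate numbers were taken as pairs because the study's source data list them by experiment. Libraries with the same number deviated together from their group means (Pearson r = 0.587 over 5259 genes). The members and gene lists were chosen with earlier results of these data known. Named genes were the gate genes, Clu, up to 4 members of each list, and the genes with the largest differences in each comparison that did not overlap between groups, 10 each way for EIPA and the interaction, 20 higher and 10 lower for the gate and 5 each way for Dox. Leap2, Reg3b under EIPA and the examples taken from a list were chosen after their values were seen. The gene targeted by the guide is not reported here.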

Additional observations from a re-analysis of the deposited data

Results flagged for a closer look

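The EIPA effect differed between gated and other kept cells by edgeR's interaction test for 15 named genes outside the gate, and the values here are that difference on the log2 scale. It was higher in gated cells for Defa29 (12.36, with no UMI in gated cells of either -EIPA library, so that its size is no bound), Ctrb1 (2.04), Edn1 (1.90), Gm2a (1.28), Agr2 (1.00) and Hilpda (0.99). It was lower in gated cells for Ddit4l (-6.48), Tff1 (-3.84), Prl2c3 (-3.64), Ido1 (-3.35), Cck (-3.13), Il33 (-2.97), Nts (-2.31), Il18 (-1.62) and Clu (-1.61).

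Of the 11 alternatives run, Edn1 and Il18 were called in all 11, Defa29, Ddit4l, Tff1, Prl2c3 and Il33 in 10, Cck and Nts in 9, Clu in 6, Agr2 in 5, Ctrb1 in 4, Gm2a and Ido1 in 3 and Hilpda in 2. Ctrb1, Gm2a, Agr2, Hilpda and Clu were called neither by DESeq2 nor against other cells without a gate gene, Tff1, Cck and Nts were not called by DESeq2, Prl2c3 (-1.22) and Ido1 (-2.82) were not called against other cells without a gate gene, and Nts turned to 2.45 without -EIPA replicate 2.

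Some of these rest on few cells. A single gated cell held 99.3% of the Ddit4l UMIs of -EIPA replicate 2, 98.6% of the Cck and 46.2% of the Tff1 UMIs of -EIPA replicate 1, and 78.8% and 91.8% of the Nts UMIs of -EIPA replicate 2 and +EIPA replicate 1. For Prl2c3 it held 68.2% and 59.5% in -EIPA and +EIPA replicate 1, and for Defa29 48.9% and 53.8% in +EIPA replicates 1 and 2. Tff1 changed by -1.58 in gated and 2.62 in other cells, the latter from levels below 2 CPM.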

How the results depend on the processing

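The gated share stayed higher with EIPA under every alternative run, from 4.71-fold to 6.73-fold under 14 settings and from 3.55-fold to 11.1-fold when 1 library was left out (11.1 without +EIPA replicate 1, 3.55 without +EIPA replicate 2, 3.83 and 10.3 without -EIPA replicates 1 and 2). For +Dox against -Dox the ratio ran from 10.4 to 21.7 under 11 settings, to 22.8 with at least 4 gate genes and to 38.6 (interval 9.41 to 158) with at least 5, where -Dox has 2 cells. Genes called for EIPA within gated cells numbered 0 under 4 alternatives, 19 by DESeq2, 217 with no filter on low counts, 21 with at least 5 gate genes, 1 under stricter cell limits (2000 genes, 10% mitochondrial), and 18 to 130 without 1 library (130 and 18 without -EIPA replicates 1 and 2, 45 and 35 without +EIPA replicates 1 and 2). With the replicate block the paired test called 140, and in other kept cells 730 in place of 0. Interaction calls numbered 63 to 102 under 4 alternatives, 21 by DESeq2, 47 with doublets removed, 23 against other cells without a gate gene, and 33 to 318 without 1 library (96, 318, 38 and 33 without -EIPA 1 and 2 and +EIPA 1 and 2). The interaction has the library as a block already, so that no further pairing was added. Clu turned from -0.44 to 0.15 without +EIPA replicate 1 and lay between -1.40 and -0.02 otherwise. Sprr2f turned to -0.44 with at least 2 gate genes, Fundc1 to 0.25 with at least 5, and the Nts interaction, which ran from -2.88 to 2.45 when 1 library was left out, to 2.45 without -EIPA replicate 2. The cause was not tested. The settings of at least 5 gate genes and of other cells without a gate gene were chosen after seeing the data. With 26 gated cells in -Dox and 47 in -EIPA replicate 1, values of genes of low level in them rest on few UMIs.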

Other observations

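Other gene groups were compared between gated and other kept cells, as a description. Of 28 interferon-stimulated genes 9 were higher and 3 lower in all 6 libraries, of 15 p53 targets 5 were higher and 1 lower, and of 15 NRF2 targets 3 were higher and 3 lower, none of them by 1 or more on the log2 scale, beside 25.5% higher and 22.3% lower over all 6825 genes. Of 18 keratin and barrier genes 11 were higher, 6 of them by 1 or more. Of 15 genes of proton and bicarbonate transport 2 were higher and 3 lower.

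Barcodes with fewer than 1000 genes, which were left out, passed the gate in 2, 2, 12, 11, 0 and 1 cases in the libraries -EIPA 1 and 2, +EIPA 1 and 2, -Dox and +Dox.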
